A study of Mus musculus with 28 samples.

Results

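The proteasome genes of the mouse were followed in tissue of the ependymal and subependymal/subventricular zone (EZ-SEZ/SVZ) and in 22 single cells taken from the same zone, the lateral ventricle wall in which adult neural stem and progenitor cells (NSC/NPCs) reside. Genes were chosen by name, as every gene of the cell table called *Psma* to *Psmg* with a number, and names of pseudogenes, which hold -ps, were left out. The rule found 49 gene names among the 37974 genes of the cell table. One of them, *Psmc3ip*, encodes a recombination factor and not a proteasome protein, and it was kept apart, which left 48 genes. Of these, 37 had a row of the same identifier among the 36358 genes of the tissue table. *Psmb9* was read there under its current Ensembl identifier, ENSMUSG00000096727, because the cell table lists it under 2 older ones, and this addition was chosen after the data were seen. The other 10 genes (*Psma2*, *Psma8*, *Psmb1*, *Psmb5*, *Psmb10*, *Psmb11*, *Psmc1*, *Psmc6*, *Psmd7* and *Psmg2*) were not analysed here in the tissue.

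The proteasome is the protease that degrades proteins tagged with ubiquitin. Its 20S core is a barrel of alpha and beta rings, and *Psmb5*, *Psmb6* and *Psmb7* encode the beta subunits that cut. The 19S cap, made of a base with ATPases and a lid, recognises, unfolds and feeds in the substrate. In cells exposed to interferon, *Psmb8*, *Psmb9* and *Psmb10* encode inducible subunits that take the places of *Psmb5*, *Psmb6* and *Psmb7* in newly built cores, and the result is the immunoproteasome, known for making peptides for MHC class I. *Psme1* and *Psme2* encode PA28, an activator that is likewise induced by interferon. In the nervous system most cells are known to use the constitutive core, and the immunoproteasome is known chiefly from microglia and from inflamed tissue.

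All mice were C57BL/6, and no genotype or treatment differed between groups. The tissue was total RNA of 3 samples from mice of 3 weeks and 3 from mice of 18 months. The study describes these as dissected tissue, but their labels speak of bulk cells and give the same papain digestion and sorting as for the single cells, so it is not certain that they hold every cell of the tissue. The cells came from mice of 1 month and 24 months, were gated by size and complexity, picked by hand and amplified with Smart-seq2, and belong to 3 subpopulations. Prom1+ had 3 cells at each age, Gfap+ had 2 young and 5 old cells, and Dlx2+/Dcx+ had 5 young and 4 old cells. The study named the subpopulations from clusters of these same transcriptomes, so a difference between them is given as a description. No label names the animal of a sample or a cell, so tissue p-values measure only the spread between samples, and each subpopulation and age of the cells counts as 1 sample, with no test and no standard error. In bulk tissue, fewer cells of a type and less RNA per cell cannot be told apart.

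Values are FPKM (read fragments of a gene divided by its transcript length and by the size of the library), a unit per length in which different genes can be compared. In the tissue, between 11733 and 12127 genes reached 1 FPKM per sample, and only 58.2% to 62.3% of the values lay within 0.02 of a whole multiple of a common step, so read counts were not recovered. In the cells, 4398 to 6626 genes reached 1 FPKM, and the depth could not be read from the values. *Actb*, a gene that nearly all cells use, lay between 10900 and 29740 FPKM in the Gfap+ and Dlx2+/Dcx+ cells but at 0 in the 6 Prom1+ cells, so a value of 0 in a cell is written as "listed at 0" and not as absence. All 7 Gfap+ cells carried *Gfap* (48.7 to 194 FPKM), but also the myelin genes *Mbp* (6346 to 19572 FPKM) and *Mobp*, so "Gfap+" is used here only as the name of the cluster. The 8 oligodendrocyte lineage markers summed to at least 27618 FPKM in each Gfap+ cell and to no more than 343 FPKM in any other cell. *Prom1* was above 1 FPKM in all 6 Prom1+ cells, and *Dlx2* and *Dcx* in all 9 Dlx2+/Dcx+ cells. *Prom1* was also above 1 FPKM in 2 Dlx2+/Dcx+ cells (up to 6.29 FPKM, against 1.49 FPKM in the lowest Prom1+ cell), and *Dlx2* in all 7 Gfap+ cells (up to 2.79 FPKM) and 2 Prom1+ cells (up to 1.74 FPKM). Since the cells had been kept for expressing such genes, the values of these label genes are no separate check of the names.

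The promoters of 3 catalytic subunits are shown because the 2 inducible genes with tissue values, *Psmb8* and *Psmb9*, differed with age there while the constitutive *Psmb6* did not pass the test. Each run is the 250 bases before the gene's start in RefSeq (GRCm38.p6), 5′ to 3′ on the strand of the gene, and capitals mark the motif matches found. *Psmb8* is read from the plus strand at chr17:34197945-34198194, *Psmb9* from the minus strand at chr17:34187331-34187580 and *Psmb6* from the plus strand at chr11:70525107-70525356.
Psmb8: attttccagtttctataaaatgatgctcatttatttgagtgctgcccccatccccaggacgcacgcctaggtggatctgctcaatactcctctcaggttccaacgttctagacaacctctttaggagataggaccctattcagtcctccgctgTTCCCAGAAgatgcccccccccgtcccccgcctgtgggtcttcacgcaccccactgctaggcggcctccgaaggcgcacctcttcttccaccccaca
Psmb9: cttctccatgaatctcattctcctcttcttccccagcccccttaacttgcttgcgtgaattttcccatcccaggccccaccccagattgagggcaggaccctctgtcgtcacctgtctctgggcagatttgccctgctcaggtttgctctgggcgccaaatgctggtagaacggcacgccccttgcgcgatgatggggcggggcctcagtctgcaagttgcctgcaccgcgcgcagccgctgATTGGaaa
Psmb6: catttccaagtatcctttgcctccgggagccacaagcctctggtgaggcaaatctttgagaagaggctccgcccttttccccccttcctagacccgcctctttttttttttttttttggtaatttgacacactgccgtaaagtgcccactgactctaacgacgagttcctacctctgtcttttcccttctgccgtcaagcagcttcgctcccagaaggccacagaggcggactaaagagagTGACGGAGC
The capitals mark a gamma-interferon activation site in *Psmb8*, beginning 97 bases before the start, a CCAAT box read on the other strand in *Psmb9*, beginning 8 bases before it, and an antioxidant response element in *Psmb6*, beginning 9 bases before it. *Psmb9* lies head to head with *Tap1*, the gene of a peptide transporter for MHC class I, and their RefSeq starts are 226 bases apart, so the 300-base entries of both genes (250 bases before and 50 after the start) share 275 bases. The RefSeq starts of *Psmb8* and *Psmb9* lie inside the GENCODE spans of these genes given further on, so other transcripts start upstream of them.

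Both strands of the 250 bases were searched for 5 motifs, and 40 of the 48 genes had an entry among the 32851 promoter entries of RefSeq. *Psma8*, *Psmb1*, *Psmb2*, *Psmb7*, *Psmc3*, *Psmd3*, *Psmd7* and *Psmg2* had none. The gamma-interferon activation site (TTCNNNGAA) was found in 2 genes, *Psmb8* and *Psmg1* (5% of the 40), and in 7.02% of all promoters. The interferon-stimulated response element (GAAA, any 2 bases, then GAAA) was found in *Psmb3*, *Psmd4* and *Psmd9* (7.5%), against 2.98% of all promoters, and in none of the 3 inducible genes. The antioxidant response element (TGACNNNGC), the kind of site that the transcription factor *Nfe2l1* binds, was found in *Psmb5*, *Psmb6*, *Psmc6*, *Psmd9* and *Psmd12* (12.5%), against 10.2%. The CCAAT box was found in 14 genes (35%), against 33.8%, and an NF-kappaB site (GGGA, any 2 bases, then TTCC) in *Psme4* alone (2.5%), against 1.21%. The 3 genes with an interferon-stimulated response element thus encode a constitutive beta subunit, a base subunit and an assembly factor. A match is a description of letters and not a site known to be bound.

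In the tissue, the 2 inducible catalytic subunits were higher at 18 months, and none of the other 36 proteasome genes passed either limit. The comparison asks how proteasome gene expression differed between young and old tissue, and each log2 fold change gives old over young samples, computed from log2(FPKM + 1), so that changes of low genes come out too small. Genes with at least 1 FPKM in at least 3 of the 6 samples were tested with limma, which left 12287 genes and all 38 proteasome genes. *Psmb9* was among them only through the samples of 18 months. A gene was called at the size limit when it moved by more than 1 on the log2 scale with p under 0.05 before adjustment, and at the adjusted limit with a Benjamini-Hochberg adjusted p under 0.05.

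**Figure D1:**
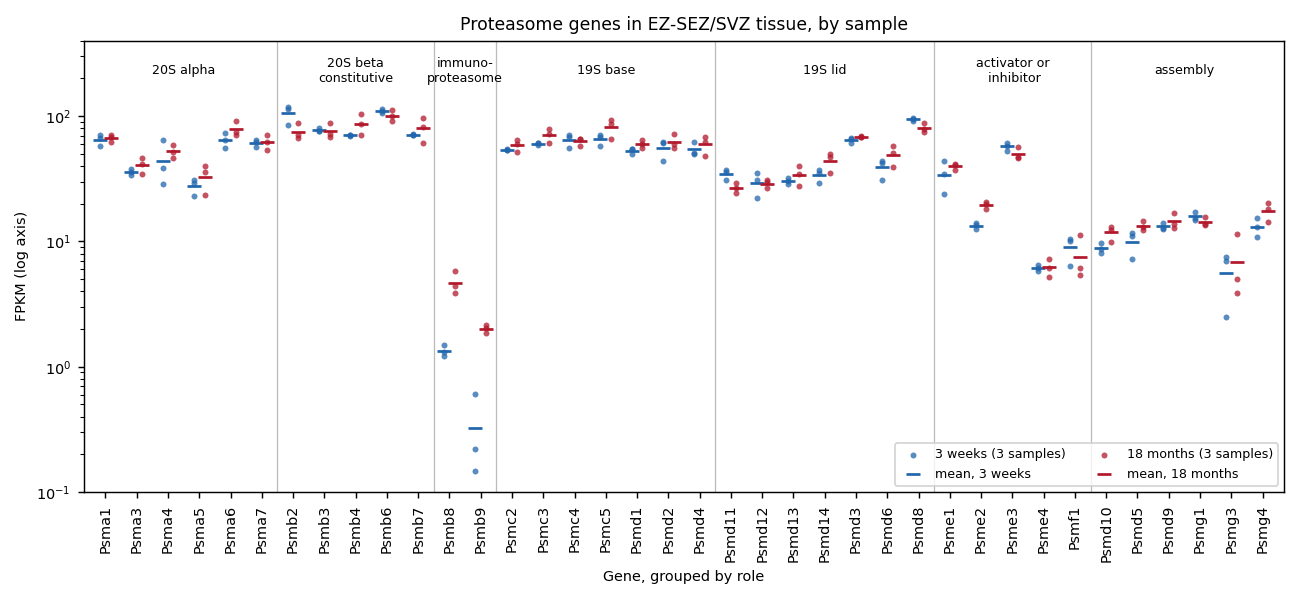
FPKM (log axis) of the 38 proteasome genes in each of the 6 tissue samples, with genes along the horizontal axis grouped by role. Points are samples, blue for 3 weeks and red for 18 months, and short bars are the means of 3 samples. The red points lie clear above the blue ones for *Psmb8* and *Psmb9*, which also have the lowest means in the plot, while red and blue points of the 20S and 19S genes lie at like heights.

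*Psmb8*, the inducible counterpart of *Psmb5*, measured 4.40, 3.84 and 5.83 FPKM in the samples of 18 months and 1.31, 1.49 and 1.21 FPKM in those of 3 weeks. The lowest old sample was thus above the highest young one. Its log2 fold change was 1.27 (SE 0.162, 3 samples per age, limma adjusted p = 0.017). The gene (ENSMUSG00000024338) lies on chromosome 17 at 34197721 to 34201454 of GRCm38, plus strand, in the MHC region.

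*Psmb9*, the inducible counterpart of *Psmb6*, measured 1.84, 2.02 and 2.14 FPKM at 18 months and 0.148, 0.219 and 0.602 FPKM at 3 weeks. The ages did not overlap here either. Its log2 fold change was 1.20 (SE 0.155, limma adjusted p = 0.0173). The size of this change depends on the scale, and was 2.46 with a pseudocount of 0.1 (limma adjusted p = 0.0456) and 1.97 with TPM scaling (limma adjusted p = 0.0237). It lies beside *Psmb8* on chromosome 17 at 34181987 to 34187764, minus strand. *Psmb9* met the filter on low values only through the samples of 18 months, so among genes past this filter it had to differ. With no filter its adjusted p was 0.0381 and that of *Psmb8* 0.0408, over 25147 genes.

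Of the 37 genes found by the same identifier, 1 was called higher at the size limit, where 1.83% of all genes were higher, and 0 were called lower, where 2.07% were. Of all genes these were 225 higher and 254 lower, and 521 higher and 370 lower when FPKM were rescaled to TPM, which left the count of proteasome genes at 1 and 0. At the adjusted limit the counts were again 1 higher (2.51% of all genes) and 0 lower (2.42%). With *Psmb9* the count was 2 of 38 under both limits. At an unadjusted p under 0.05, 5 of the 37 genes passed, against 2990 of the 12287 genes. With 37 genes, counts of 1 and 0 are near these background shares, so the result concerns which genes were called and not how many.

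At the adjusted limit *Psmb8* lost its call without any 1 of the young samples, with an adjusted p between 0.0736 and 0.0859, and its adjusted p was between 0.0367 and 0.0473 without any 1 of the old samples. The fold change of *Psmb8* lay between 1.13 and 1.38 in these 6 fits and its call at the size limit did not change. Without any 1 of the old samples *Psmb9* had too few samples at 1 FPKM to be tested. Without 3 weeks replicate 1, 2 or 3, its adjusted p was 0.0677, 0.0949 and 0.0296, with log2 fold changes of 1.10, 1.15 and 1.34.

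The 2 constitutive catalytic subunits with tissue values did not pass the test, and *Psmb6* stood far above *Psmb9*, which takes its place. *Psmb6* measured 101, 90.9 and 112 FPKM at 18 months and 111, 106 and 115 FPKM at 3 weeks. These ranges overlapped, and the log2 fold change was -0.13 (95% interval -0.40 to 0.14, limma adjusted p = 0.504). *Psmb7* measured 61.5, 81.3 and 97.4 FPKM at 18 months against 70.6, 71.7 and 70.9 FPKM at 3 weeks. Its old samples lay on both sides of the young ones, with a log2 fold change of 0.15 (95% interval -0.29 to 0.59, limma adjusted p = 0.652). *Psmb5* and *Psmb10* were not analysed here in the tissue, so neither the ratio of *Psmb8* to *Psmb5* nor that of *Psmb10* to *Psmb7* could be formed.

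The inducible subunits were also set against a constitutive one within each sample. *Psmb9* stood at 1.82%, 2.23% and 1.92% of the FPKM of *Psmb6* in the old samples and at 0.134%, 0.206% and 0.524% in the young ones. On the log2(FPKM + 1) scale the ratio was -5.09 ± 0.14 (SD, n = 3) at 18 months and -6.41 ± 0.22 at 3 weeks, a difference of 1.33. With *Psmb9* this low the size depends on the pseudocount, and the difference was 2.59 with a pseudocount of 0.1. *Psmb8* was set against *Psmb6* as well, a ratio chosen after the data were seen, and stood at 4.35%, 4.23% and 5.22% of *Psmb6* in the old samples and at 1.18%, 1.40% and 1.06% in the young ones. That difference was 1.40 on the log2 scale. In both ratios every old sample was above every young sample, and the exact two-sided permutation test gave p = 0.1 for each (adjusted p = 0.1 over the 2 ratios), the smallest value that 3 against 3 samples allow, so p under 0.05 could not be reached.

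The activators and inhibitors differed among themselves. *Psme2*, a PA28 subunit, measured 18.1, 19.7 and 20.7 FPKM at 18 months and 13.9, 13.6 and 12.5 FPKM at 3 weeks. The ages did not overlap, but with a log2 fold change of 0.51 (95% interval 0.25 to 0.78) its limma adjusted p of 0.0595 missed the limit. *Psme2b*, a copy that could share reads with it, was listed at 7.92 FPKM in 3 weeks replicate 2 and at 0 in the other samples. *Psme1*, the other PA28 subunit, measured 41.7, 37.2 and 41.0 FPKM at 18 months and 34.6, 23.9 and 43.9 FPKM at 3 weeks, with overlapping ages and a log2 fold change of 0.26 (limma adjusted p = 0.527). *Psme3*, *Psme4* and *Psmf1*, the genes of PA28 gamma, PA200 and the inhibitor PI31, had log2 fold changes of -0.20, 0.00 and -0.25, and their ages overlapped.

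Among the structural subunits no change passed the adjusted limit. The 6 alpha genes had log2 fold changes of 0.02 to 0.32 with a median of 0.20, the 5 constitutive beta genes -0.47 to 0.28 with a median of -0.04, the 7 base genes -0.03 to 0.31 with a median of 0.17, and the 7 lid genes -0.35 to 0.35 with a median of 0.09. The median over all genes tested was 0.09, and over the 37 proteasome genes 0.15, with 28 above 0 and 9 below. The median of the proteasome genes lay between 0.0741 and 0.235 as 1 sample at a time was left out, so it depended on the samples as much as on its distance from the median of all genes.

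Some structural and assembly genes had unadjusted p under 0.05 or ages that did not overlap. *Psmb2*, a constitutive beta subunit, measured 71.1, 67.1 and 87.7 FPKM at 18 months and 85.1, 113 and 117 FPKM at 3 weeks (log2 fold change -0.47, limma adjusted p = 0.174). *Psmd11*, a lid subunit, measured 29.4, 26.9 and 24.6 FPKM against 31.0, 36.1 and 36.9 FPKM (log2 fold change -0.35, limma adjusted p = 0.158). *Psmd10*, which encodes an assembly chaperone of the base, measured 9.83, 13.2 and 12.4 FPKM against 9.72, 8.70 and 8.04 FPKM (log2 fold change 0.38, limma adjusted p = 0.2). None of these 3 passed the adjusted limit. Of the 37 genes, 8 (*Psmb4*, *Psmb8*, *Psmc3*, *Psmd1*, *Psmd3*, *Psmd5*, *Psmd10* and *Psme2*) had old samples all above the young ones, where 20.9% of all genes did, and 2 (*Psmd8* and *Psmd11*) had them all below, where 12.2% did.

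**Figure D2:**
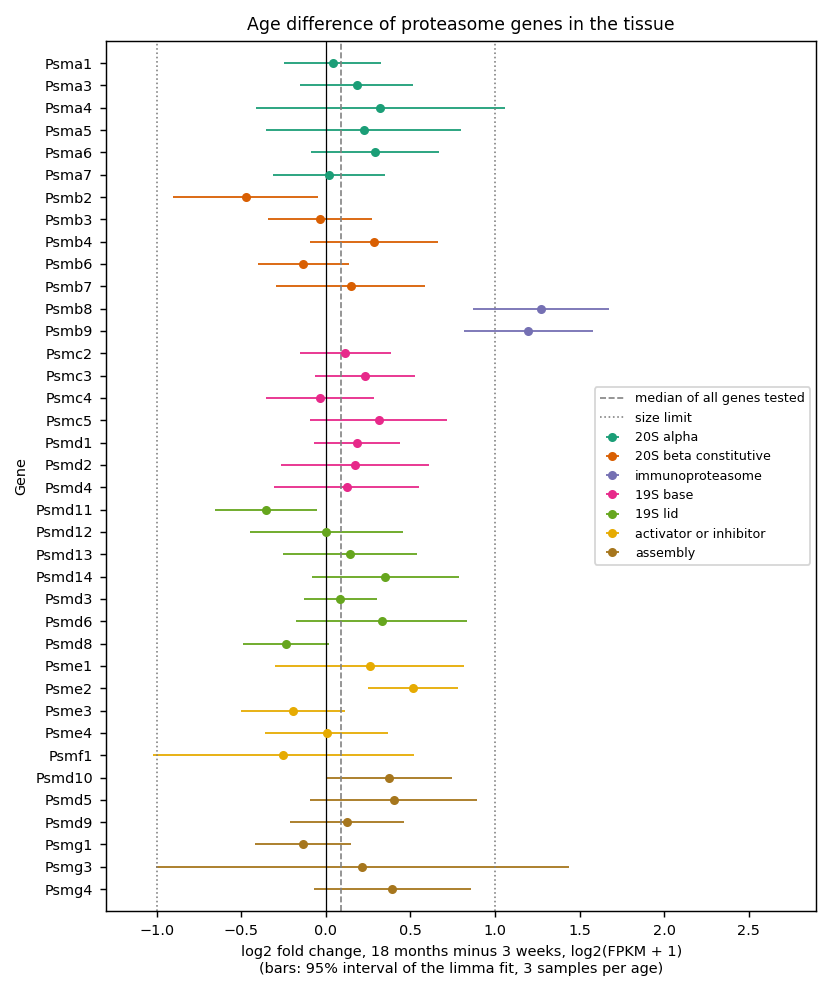
Log2 fold change of the 38 proteasome genes between 18 months and 3 weeks in the tissue, by role, with 95% intervals of the limma fit (3 samples per age). The dashed line is the median of all 12287 genes, 0.09, and the dotted lines are the size limit of 1. *Psmb8* and *Psmb9* are the 2 genes whose points lie past the size limit.

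The intervals show what these samples could leave undetected. Over the 25 alpha, beta, base and lid genes the highest upper bound was 1.06 on the log2 scale (*Psma4*) and the lowest lower bound -0.90 (*Psmb2*). *Psmd3*, a lid subunit, had the narrow interval of -0.13 to 0.30. The assembly factor *Psmg3* measured 3.89, 11.5 and 5.04 FPKM in the old samples, and its interval ran from -1.01 to 1.44.

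Levels per length varied within and between roles. The 5 constitutive beta genes had means over the 6 samples of 75.5 (*Psmb7*) to 106 FPKM (*Psmb6*), a range of 1.4-fold, and the 7 base genes 56.4 (*Psmd1*) to 73.8 FPKM (*Psmc5*), a range of 1.31-fold. The lid genes spread wider, from 29.2 FPKM (*Psmd12*) to 87.6 FPKM (*Psmd8*), and the alpha genes from 30.3 FPKM (*Psma5*) to 71.9 FPKM (*Psma6*). The assembly factors lay lower, between 6.22 and 15.4 FPKM, and *Psmb8* and *Psmb9* lowest with 3.01 and 1.16 FPKM. The activators and inhibitors ran from 6.18 FPKM (*Psme4*) to 53.8 FPKM (*Psme3*), a range of 8.71-fold. Among the old samples, replicate 1 was the lowest for 23 of the 36 genes outside the immunoproteasome, where it was the lowest for 43.2% of all genes tested, and their summed FPKM was 1603 there against 1823 and 1809 in replicates 2 and 3 and 1623 to 1693 in the young samples.

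The wider ubiquitin and proteasome pathway was read from a list. Of 24 listed pathway genes in the table (ubiquitin genes, receptors, deubiquitinases, shuttle factors and regulators of proteasome genes), 23 were tested and 0 were called in either direction under either limit, with a median log2 fold change of 0.11. Between 1.83% and 2.51% of all genes were called in 1 direction, so a count of 0 among 23 is near the background. *Nfe2l1*, which encodes the factor known to induce proteasome genes when the proteasome is impaired, had a log2 fold change of 0.50 (limma adjusted p = 0.0635). *Ube3a*, a ubiquitin ligase gene, had 0.66 (adjusted p = 0.0748), and *Rps27a*, which encodes a ubiquitin fused to a ribosomal protein, had 0.80 (adjusted p = 0.128). For these genes the old samples lay above the young ones, as they did for 20.9% of all genes. *Adrm1*, a ubiquitin receptor of the cap (-0.27, adjusted p = 0.2), and *Uba1*, the ubiquitin-activating enzyme (-0.19, adjusted p = 0.331), had all old samples below the young ones, as did 12.2% of all genes. None of the 5 passed the adjusted limit.

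Genes of interferon signalling and of MHC class I loading were read as companions of the immunoproteasome. Of 15 listed genes, 14 were in the table, 12 were tested, and 3 were called higher and 0 lower at the adjusted limit, where 2.51% and 2.42% of all genes were. The 3 were *Irf1*, an interferon-induced transcription factor (0.84, limma adjusted p = 0.0327), *Tap2*, a peptide transporter subunit (0.77, adjusted p = 0.0333), and *Canx*, a chaperone that acts widely outside this pathway (1.5, adjusted p = 0.0163). *Tap1*, which shares its promoter region with *Psmb9*, had 0.71 (limma adjusted p = 0.138), and passed the filter on low values only through the samples of 18 months. *B2m*, the light chain of MHC class I, had -0.11 (adjusted p = 0.811).

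Some markers of other cell types moved with the same comparison. Of 11 microglia markers, 9 were in the table and tested. *Ctss* was called higher at the adjusted limit (log2 fold change 0.95, limma adjusted p = 0.0176) and 0 were called lower, where 2.51% and 2.42% of all genes were. The 9 summed to 286 to 340 FPKM at 18 months and 207 to 240 FPKM at 3 weeks. *Ctss* alone had means of 130 and 66.5 FPKM at these ages, a large part of that difference. Among the other markers, *Tyrobp* (1.07, limma adjusted p = 0.105, past the size limit), *Aif1* (0.99, adjusted p = 0.0909), *Trem2* (0.56, adjusted p = 0.0824), *Itgam* (0.51) and *Cd68* (0.11) had positive log2 fold changes. Those of *Csf1r* (-0.07), *Tmem119* (-0.28, adjusted p = 0.148) and *P2ry12* (-0.64) were negative. The median of the 9 was 0.51. The 4 T cell markers were too low to be tested and summed to 1.10 to 2.23 FPKM at 18 months and 0.574 to 0.903 FPKM at 3 weeks. The 7 oligodendrocyte markers in the table summed to 3440 to 4120 FPKM at 18 months and 19037 to 21127 FPKM at 3 weeks. The part of any of these in the difference of *Psmb8* and *Psmb9* was not tested.

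In the single cells, the median constitutive beta gene was read in 21 and the median base gene in 20 of the 22 cells, and the inducible catalytic subunits in 1 or 2 cells each. A gene was counted as read above 1 FPKM, and 44 of the 48 genes were above it in at least 3 of the 22 cells. The 4 below this filter were *Psmb8*, *Psmb9*, *Psmb10* and *Psma8*, the testis alpha subunit, which was listed at 0 in all cells. Among the 44, the median gene was above 1 FPKM in 17.5 cells, against 9 cells for all 11332 genes past the filter. Base genes were read in 17 to 22 cells, lid genes in 13 to 22, constitutive beta genes in 14 to 22, and assembly factors in 4 to 16.

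**Figure D3:**
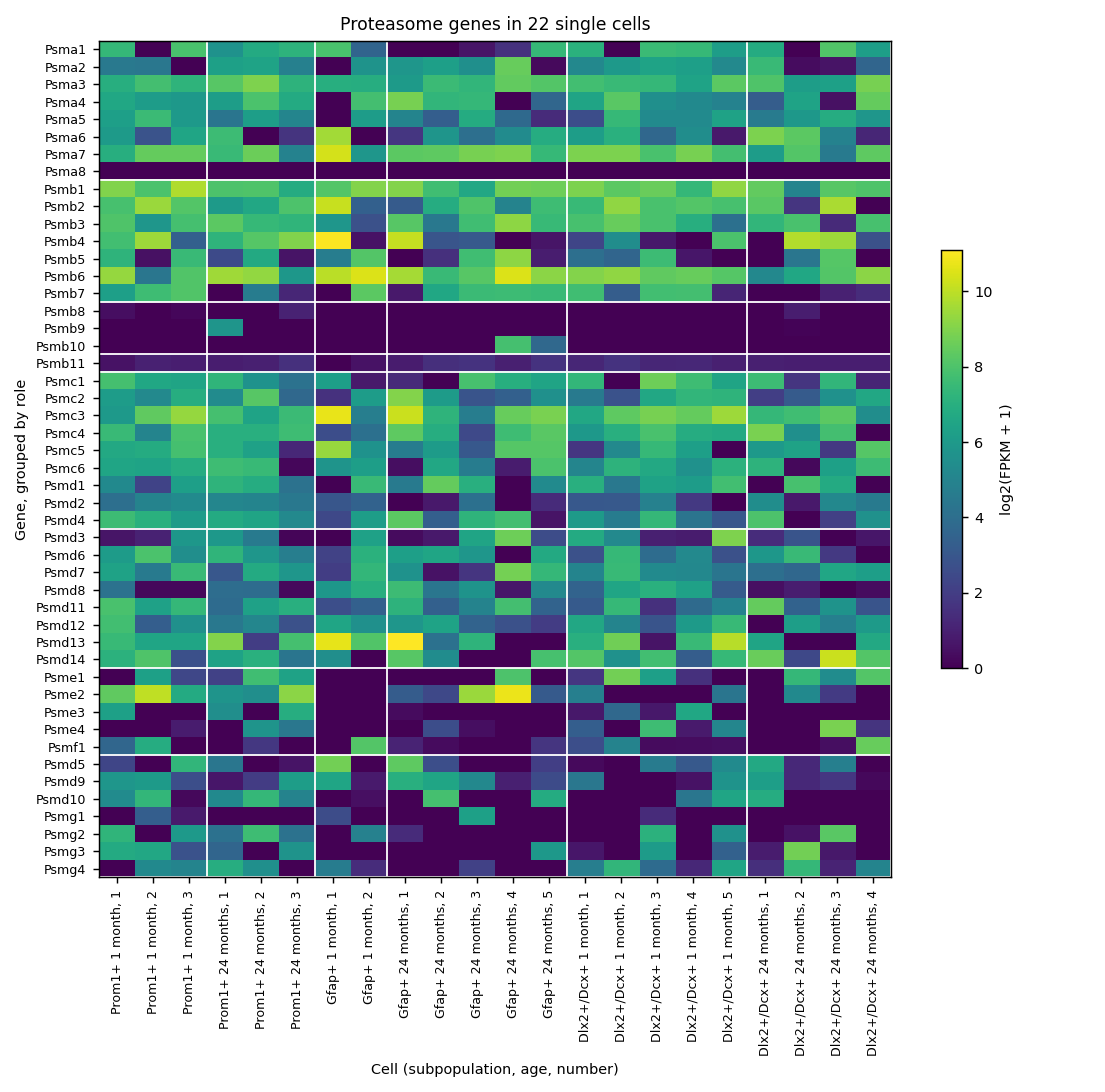
Heat map of log2(FPKM + 1) of the 48 proteasome genes (rows, grouped by role) in the 22 cells (columns, grouped by subpopulation and age), with white lines between groups. *Psma3*, *Psma7*, *Psmb1* and *Psmb6* are well above 0 in all cells, while the rows of *Psmb8*, *Psmb9*, *Psmb10* and *Psma8* are dark but for 1 cell of *Psmb9* and 2 cells of *Psmb10*.

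Among the 48 genes, 8 were above 1 FPKM in all 22 cells, namely *Psma3*, *Psma7*, *Psmb1*, *Psmb3*, *Psmb6*, *Psmc2*, *Psmc3* and *Psmd11*. *Psmb6* had a median of 443 FPKM over cells (19.3 to 1463) and *Psmb1* 306 FPKM. Of these 8 genes *Psma3* had the smallest SD over cells, 0.82 on the log2(FPKM + 1) scale, with values up to 491 FPKM. *Psmb4*, which was not read in every cell, had the largest SD of the 48 genes, 3.95, with values from 0 to 2112 FPKM. In the tissue *Psmb4* lay between 69.9 and 103 FPKM in all 6 samples. Each cell carried 10 to 14 of the 14 constitutive core genes above 1 FPKM (median 12) and 10 to 17 of the 17 cap genes (median 15), and 2 cells had all 14 and 3 cells all 17. 

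The share of proteasome genes read in a cell went with how many genes were read in that cell at all. Over the 22 cells the Spearman correlation between the share of the 44 proteasome genes above 1 FPKM and the number of filtered genes above 1 FPKM was 0.81, given as a description, since both come from the same library. Prom1+ cells read 36 to 38 of the 44 proteasome genes and 5645 to 6240 filtered genes, Gfap+ cells 24 to 34 and 4188 to 5741, and Dlx2+/Dcx+ cells 28 to 38 and 4855 to 6055. The median log2(FPKM + 1) of the 44 genes was 6.14 over Prom1+ cells (4.88 to 6.46), 4.43 over Gfap+ cells (2.81 to 4.84) and 5.28 over Dlx2+/Dcx+ cells (3.24 to 6.32), so every Prom1+ cell was above every Gfap+ cell. For the 20S genes alone the medians were 6.98, 7.37 and 6.60 with overlapping ranges, an order other than that of the whole list. This order depends on the scale, since the summed FPKM of a cell was not the same in all subpopulations. It was at least 1374560 in all Gfap+ cells but 24 months replicate 3 (1013520), and at most 1200830 in the other subpopulations. The 20S medians were not read on a common total, so nothing is drawn from their order.

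The cells carried few inducible catalytic subunits. *Psmb8* was highest in Prom1+ 24 months replicate 3 (1.07 FPKM) and Dlx2+/Dcx+ 24 months replicate 2 (0.879 FPKM), and was listed at 0 in 18 of the 22 cells. *Psmb9* was at 54.2 FPKM in Prom1+ 24 months replicate 1, at 0.0708 FPKM in Dlx2+/Dcx+ 24 months replicate 2, and at 0 in the 20 others. *Psmb10* was at 226 FPKM in Gfap+ 24 months replicate 4 and 12.5 FPKM in Gfap+ 24 months replicate 5, and at 0 in the 20 others. An inducible subunit above 2 FPKM was thus read in 3 of the 12 cells of 24 months and in 0 of the 10 cells of 1 month, where the highest value was 0.349 FPKM. Above 1 FPKM, the limit used for the other counts, these were 4 of the 12 and 0 of the 10. No 2 of the 3 genes were above 2 FPKM in the same cell. With 1 sample per group these counts describe these cells only.

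**Figure D4:**
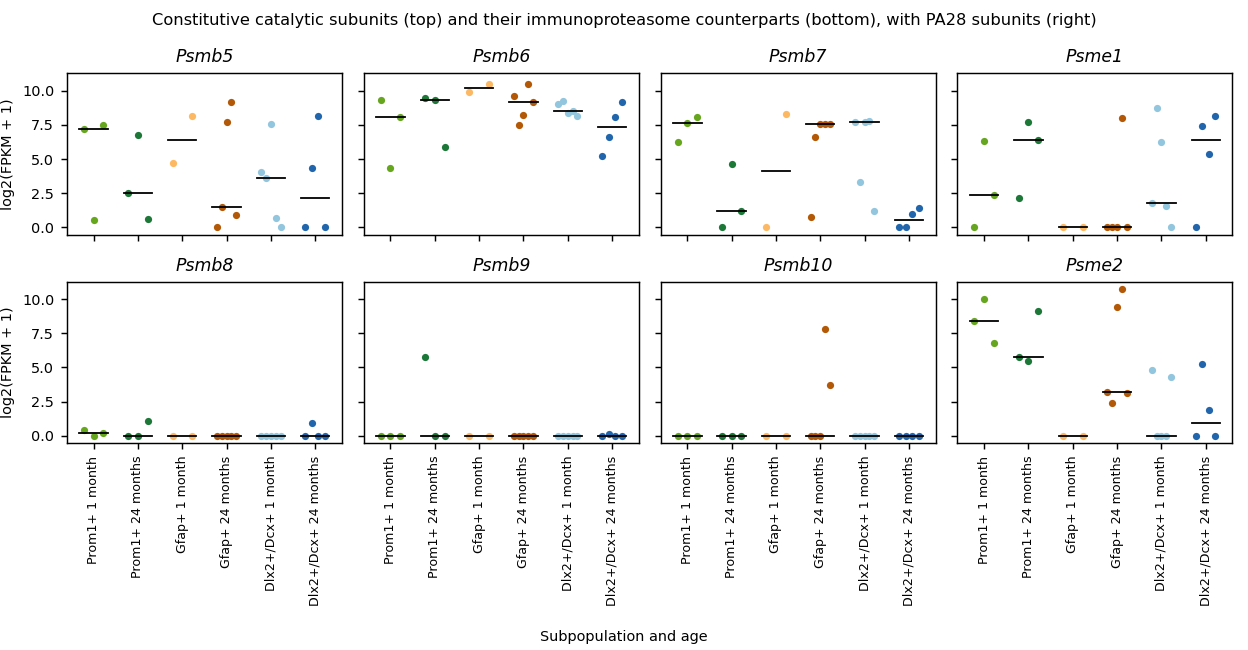
log2(FPKM + 1) of *Psmb5*, *Psmb6* and *Psmb7* (top row) and *Psmb8*, *Psmb9* and *Psmb10* (bottom row), with the PA28 genes *Psme1* and *Psme2* in the right column, in each cell by subpopulation and age. Points are cells and lines are group medians. The inducible genes sit at or near 0 but for 3 cells of 24 months, and *Psme2* is well above 0 in all 6 Prom1+ cells.

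The 3 cells were not alike in their other genes. Gfap+ 24 months replicate 4 held more *Psmb10* (226 FPKM) than *Psmb7* (193 FPKM), together with *Psmb6* at 1461 FPKM, *Psme1* at 257 FPKM and *Psme2* at 1731 FPKM, the highest *Psme2* of all cells. In Gfap+ 24 months replicate 5, *Psmb7* (186 FPKM) was above *Psmb10* (12.5 FPKM), *Psme1* was listed at 0 and *Psme2* was at 7.77 FPKM. In Prom1+ 24 months replicate 1, *Psmb6* (723 FPKM) was above *Psmb9* (54.2 FPKM), and *Psme2* was at 52.4 FPKM. These 3 cells also carried *B2m* at 1240, 782 and 534 FPKM, and both Gfap+ ones the interferon-induced GTPase gene *Gbp3* at 230 and 143 FPKM. *B2m* was read above 1 FPKM in 10 of the 22 cells, in 4 of the 5 Gfap+ cells of 24 months and in 0 of the 2 of 1 month, and *Gbp3* in 3 cells, the other one being Prom1+ 24 months replicate 3 (196 FPKM). The highest *B2m* values, 1286 and 1267 FPKM, were in Gfap+ 24 months replicates 2 and 3, where all 3 inducible subunits were listed at 0.

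Of the other companion genes, *Tap1*, *Tap2* and *Nlrc5* were listed at 0 in all 3 of these cells. Of the 11 microglia markers, 0 were above 1 FPKM in Gfap+ 24 months replicate 4 and in Prom1+ 24 months replicate 1. In Gfap+ 24 months replicate 5, *Csf1r* was at 1.84 FPKM, with *Aif1*, *P2ry12*, *Tmem119*, *Tyrobp* and *Trem2* listed at 0.

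The PA28 genes differed from each other across subpopulations. *Psme2* measured 337, 1056 and 111 FPKM in Prom1+ cells of 1 month and 52.4, 43.9 and 572 FPKM in those of 24 months. In Gfap+ cells it was listed at 0 in both of 1 month and measured 8.28, 4.36, 699, 1731 and 7.77 FPKM at 24 months. Dlx2+/Dcx+ cells held 26.8, 0, 0, 0 and 18.7 FPKM at 1 month and 0, 37.7, 2.69 and 0 FPKM at 24 months. Every Prom1+ cell was thus above every Dlx2+/Dcx+ cell. *Psme1* did not follow its partner. It measured 0, 77.9 and 4.08 FPKM in Prom1+ cells of 1 month, 3.45, 205 and 84.3 FPKM in those of 24 months, and was listed at 0 in all Gfap+ cells but replicate 4 of 24 months (257 FPKM). In Dlx2+/Dcx+ cells it measured 2.38, 422, 75.1, 1.89 and 0 FPKM at 1 month and 0, 168, 40.6 and 282 FPKM at 24 months. Dlx2+/Dcx+ cells with much *Psme1* could therefore have no *Psme2* listed, as in 1 month replicate 2 (422 and 0 FPKM).

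The constitutive catalytic genes were uneven within each group. *Psmb5* measured 148, 0.43 and 183 FPKM in Prom1+ cells of 1 month and 4.68, 107 and 0.513 FPKM at 24 months, 24.9 and 279 FPKM in Gfap+ cells of 1 month and 0, 1.87, 207, 596 and 0.83 FPKM at 24 months. Dlx2+/Dcx+ cells held 15.6, 11.4, 193, 0.604 and 0 FPKM at 1 month and 0, 19.3, 290 and 0 FPKM at 24 months. High and low cells thus occurred at both ages. *Psmb6* was the steadiest of the 3, with 657, 19.3 and 273 FPKM in Prom1+ cells of 1 month and 723, 630 and 57.4 FPKM at 24 months, 982 and 1463 FPKM in Gfap+ cells of 1 month and 787, 184, 298, 1461 and 574 FPKM at 24 months. In Dlx2+/Dcx+ cells it measured 521, 604, 336, 366 and 284 FPKM at 1 month and 35.8, 95.7, 277 and 578 FPKM at 24 months, with 3 of the 4 old cells below every young one.

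In Prom1+ and Dlx2+/Dcx+ cells *Psmb7* was the constitutive catalytic gene with the largest age difference. It measured 76.2, 200 and 271 FPKM in Prom1+ cells of 1 month and 0, 24.1 and 1.27 FPKM at 24 months, so all old cells lay below all young ones. In Dlx2+/Dcx+ cells it measured 207, 8.79, 214, 216 and 1.25 FPKM at 1 month and 0, 0, 1.01 and 1.68 FPKM at 24 months, which overlap in 1 young cell. In Gfap+ cells it measured 0 and 313 FPKM at 1 month and 0.696, 97.8, 187, 193 and 186 FPKM at 24 months, with no such order. In the tissue the log2 fold change of *Psmb7* was 0.15, between mice of other ages.

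Few proteasome genes separated the ages within a subpopulation. A gene was counted past the fold with a difference of mean log2(FPKM + 1) above 1 and no overlap between the cells of the 2 ages. In Prom1+ cells 1 of 44 was higher at 24 months, where 3.32% of the filtered genes were, and 1 lower, where 3.68% were. The higher one was *Psma2*, an alpha subunit, with 21.4, 19.9 and 0 FPKM at 1 month and 78.0, 86.6 and 27.4 FPKM at 24 months (difference 2.91), and the lower one *Psmb7* (difference -5.39). In Gfap+ cells 2 of 44 were higher (2.56% of the filtered genes) and 0 lower (2.79%). They were *Psme2* (difference 5.80) and *Psmb11*, the thymus beta subunit, which stayed between 0 and 2.11 FPKM in all cells and measured 0 and 0.451 FPKM at 1 month and 0.823, 1.85, 2.11, 0.973 and 2.05 FPKM at 24 months. For Dlx2+/Dcx+ cells 0 of 44 were higher (0.529%) and 1 lower (1.05%). It was *Psmd8*, a lid subunit, with 10.6, 89.9, 132, 79.7 and 8.20 FPKM at 1 month and 0.378, 0.858, 0 and 0.307 FPKM at 24 months (difference -4.89).

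Counts of 0 to 2 of 44 genes are near the background shares, and nothing is read from them about the list. The counts changed with the cells as well. In Prom1+ cells they ran from 1 to 4 higher and from 2 to 6 lower as 1 cell at a time was left out, and in Gfap+ cells, without the young replicate 2, 8 were higher and 10 lower, since 1 young cell then remained.

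Old Dlx2+/Dcx+ cells read fewer proteasome genes. They had 28 to 33 of the 44 above 1 FPKM against 34 to 38 in the young cells, and 12 to 14 of the 17 cap genes against 15 to 17. For the constitutive core genes the counts met, with 11 to 12 in the old cells against 12 to 14. The filtered genes read were also fewer in the old cells, 4855 to 5063 against 5093 to 6055, with no overlap. The part of this in the proteasome counts was not tested. The median difference of the 44 genes, 24 months minus 1 month, was -0.67 in Dlx2+/Dcx+ cells, where that of all filtered genes was -0.14. It was -0.56 in Prom1+ cells (0.00 for all filtered genes) and 0.35 in Gfap+ cells (0.16). In Prom1+ cells it turned to 0.10 without 24 months replicate 3, and in Gfap+ cells to -0.17 without 1 month replicate 1. The SD of the cell medians in Dlx2+/Dcx+, Prom1+ and Gfap+ cells was 0.83, 0.56 and 1.12, which are of the same order as these differences or larger. In Dlx2+/Dcx+ cells the difference stayed below 0 as 1 cell at a time was left out, at -0.38 without 24 months replicate 2 and -0.95 without 1 month replicate 4. It was -0.29 with medians in place of means and -1.09 with a pseudocount of 0.1, and the difference in Gfap+ cells was 0.06 with medians.

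Between subpopulations, with cells of both ages together, *Psme2* was the 1 gene past the fold. It was lower in Dlx2+/Dcx+ than in Prom1+ cells (difference -5.80), where 0.176% of the filtered genes were lower and 0.212% higher, and 0 of 44 proteasome genes were higher. Between Prom1+ and Gfap+ cells 0 of 44 were past the fold in either direction (1.89% of the filtered genes were higher in Prom1+ and 2.52% lower). Between Dlx2+/Dcx+ and Gfap+ cells it was also 0 of 44 in either direction (1.01% higher in Dlx2+/Dcx+ and 2.04% lower). By role, the median difference of Prom1+ minus Gfap+ cells was 3.01 for the 5 activators and inhibitors, 2.61 for the 7 assembly factors, 1.22 for the 9 base genes, 0.79 for the 8 lid genes, 0.39 for the 7 alpha genes and -0.02 for the 7 constitutive beta genes, beside 0.24 for all filtered genes. It was -0.04 for *Psmb11*.

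The level of a gene in the tissue and its reading in cells went together in part. Over the 37 genes with both, the Spearman correlation between the mean tissue FPKM and the number of cells above 1 FPKM was 0.52, across genes that are not independent replicates.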

How the data were processed

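Total RNA of EZ-SEZ/SVZ tissue (3 samples each of 3 weeks and 18 months) and 22 single cells (Smart-seq2) were sequenced by the authors. The 2 deposited tables used here hold FPKM values per gene and sample, made by the authors. The study aligned the reads of the cells to GRCm38 with HISAT2 and estimated FPKM with StringTie. The submitters' processing notes name these and featureCounts for all samples. Their versions are not given in the sources used here. FPKM is relative to each library's own total, so a large change in an abundant gene shifts the others.

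Samples were grouped by the labels. All proteasome genes could be named, and values by sample were given for the catalytic pairs, *Psme1*, *Psme2*, the genes called and, per contrast of cells, up to 3 genes past the fold. Members and lists were chosen with earlier results of these data known. For *Psmd14* and *Psmb9*, which have 2 rows in the cell table, the row of the higher mean was used. Tissue genes that reached 1 FPKM in 3 or more samples were fitted with limma 3.58.1 (lmFit, eBayes with trend, age as the only term) in R 4.3.3 on log2(FPKM + 1). The limits of an unadjusted p under 0.05 and a log2 fold change above 1 are those of the study, whose model needs read counts, so limma took its place. Cells were described without tests, over genes above 1 FPKM in at least 3 cells. Ratios were tested with exact permutation in scipy 1.17.1 (Python 3.11.15, pandas 2.3.3, numpy 2.4.6), and figures were drawn with matplotlib 3.10.9. The fit was tested on simulated data. Alternatives were a pseudocount of 0.1, no filter, TPM scaling, quantile normalization, a replicate block, medians and leaving out samples or cells. Promoters came from RefSeq, positions and symbols from GENCODE, both of GRCm38. Values of some listed marker and companion genes are not reported here.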

Additional observations from a re-analysis of the deposited data

Results flagged for a closer look

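The 11 genes given cell by cell and the median of all proteasome genes were looked at in each group of 4 or 5 cells, and in 4 of 30 such sets 1 cell stood far from the others. Chance gives about 1 in 20 for values with no ties, a rate that does not hold for the 3 sets in which all other cells were listed at 0 and any value above 0 stands apart. In Dlx2+/Dcx+ cells of 24 months, replicate 2 stood at 0.91 for *Psmb8* and 0.10 for *Psmb9* on the log2(FPKM + 1) scale, while the other 3 cells were listed at 0. Both values were under 1 FPKM. In Gfap+ cells of 24 months, replicate 1 stood at 0.76 for *Psmb7*, which is 0.696 FPKM, below the 97.8 to 193 FPKM of the other 4 cells. Replicate 4 of the same group stood at 8.01 for *Psme1*, with the other 4 cells listed at 0, and it was also the cell with the highest *Psmb10*.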

How the results depend on the processing

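With 6 tissue samples and 2 to 5 cells per group, small changes could not be seen. In the tissue, *Psmb8* kept its call at the size limit under all alternatives, and the count of the 37 genes was 1 higher and 0 lower throughout. At the adjusted limit the count was 0 to 1 higher as 1 sample at a time was left out, and 0 with the replicate number as a block, where the adjusted p of *Psmb8* was 0.165 and of *Psmb9* 0.123. The block left 4 higher and 13 lower calls among all genes, against 308 and 297 without it, while same-numbered samples did not deviate together (correlations -0.10, -0.01 and -0.10), so the numbers do not pair the samples. Among all genes the adjusted calls ran from 31 to 309 higher and 43 to 304 lower as 1 sample was left out, and with no filter were 201 and 213. With a pseudocount of 0.1, 416 were higher and 349 lower at the size limit. The median change of the proteasome genes ran from 0.0741 to 0.235 without 1 sample. In the cells, leaving out 1 cell at a time gave 1 to 4 genes higher and 2 to 6 lower with age in Prom1+ cells, 1 to 8 higher and 0 to 10 lower in Gfap+ cells, and 1 to 3 lower in Dlx2+/Dcx+ cells. TPM scaling gave 2 lower in Prom1+ cells with age, 1 higher in Gfap+ cells with age and 1 higher in Prom1+ than in Gfap+ cells. Cells of 1 month alone gave 6 higher and 3 lower in Prom1+ against Gfap+ cells, 1 higher and 1 lower in Dlx2+/Dcx+ against Gfap+ cells and 1 higher in Dlx2+/Dcx+ against Prom1+ cells, and cells of 24 months alone gave 2 higher in Prom1+ than in Gfap+ cells. The causes were not tested, but smaller groups overlap less often by construction.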
